A study of Mus musculus with 23 samples.

Results

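Potassium channel genes were followed in primary hippocampal neurons whose Nedd8 gene had been inactivated. The genes were taken by rule: protein-coding genes of the GRCm39 annotation with a symbol made of Kcn, further letters and a number, and with at least 10 counts in at least 10 of the 23 libraries. Of 93 genes with such a symbol, 69 met the count rule and 24 did not, out of 56941 genes listed in the files. The 69 members comprise 59 pore-forming and 10 auxiliary subunits in 14 subfamilies, and all 69 passed the expression filter of the comparison, which left 14488 genes. Kcnj15 alone met the rule without any RFP library, with 12 of 12 CRE and 0 of 11 RFP libraries at 10 counts or more. Its difference between the groups is thus built into its selection. Among called members, Kcnh5 (11 CRE and 5 RFP libraries) and Kcnh4 (11 and 7) would not meet the rule on RFP libraries alone. Kcnmb4 (9 CRE and 11 RFP libraries) would not meet it on CRE libraries alone. Selection of these genes thus leaned on the group where they are higher. Just outside the rule stood Kcnh6, with 10 counts or more in 9 libraries, and just inside it, after Kcnj15 with 12, Kcnu1 with 14.

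The neurons came from hippocampi of newborn (P0) mice homozygous for the conditional allele Nedd8cKO, so control cells carry the same floxed gene. Lentivirus driven by the Synapsin1 promoter, which is active in neurons, encoded RFP alone in the control and CRE together with RFP in the Nedd8-KO neurons, and was added on day 1 in vitro. RNA was taken on day 12 according to the sample labels and on day 13 according to Methods. Glia in the same dishes are not targeted by that promoter, and the RNA is that of the whole culture. There were 12 CRE and 11 RFP libraries, numbered 1, 2 or 3 for what is read here as the culture, and no source states whether libraries of 1 number are separate dishes. The figure legends put N at 3 for these libraries, N being defined as animals or biological replicates. The p-values below treat each library as a replicate, so they measure a spread that may in part be technical and can be too small, and the main count is therefore also given for 3 sums of counts per group, 1 for each culture number.

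Potassium channels let potassium ions cross the membrane, and in doing so set the resting potential, repolarize action potentials and limit repetitive firing. Voltage-gated (Kv) channels open on depolarization, inward rectifiers (Kir) and two-pore (K2P) channels hold the resting potential, and calcium- or sodium-activated channels open as these ions enter. Auxiliary subunits carry no pore but change the trafficking and gating of the subunits they bind, and silent Kv subunits form channels only together with Kv2 subunits. In the hippocampus, Kv4 channels with their KChIP partners carry the dendritic A-type current, Kv7 channels the M-current, and Kir4.1 the potassium conductance of glia.

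The pore is lined by the selectivity filter, a stretch of 5 codons that was found in the coding sequence of 59 of 59 pore-forming and in 0 of 10 auxiliary members. In 7 of 8 K2P members the stretch was found 2 times. The search used Thr or Ser, any residue, Gly, then Tyr, Phe or Leu, then Gly. The stretches below are shown for close relatives of which only some rose or fell in CRE libraries, or which went in opposite directions. Each is 60 bases of coding sequence from the GRCm39 annotation, written 5′ to 3′ in the direction of the gene, with the filter codons in capitals.
Kcnd2: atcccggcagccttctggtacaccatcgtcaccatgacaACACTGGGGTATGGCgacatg
Kcnd3: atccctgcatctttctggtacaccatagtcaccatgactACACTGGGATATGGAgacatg
Kcnh1: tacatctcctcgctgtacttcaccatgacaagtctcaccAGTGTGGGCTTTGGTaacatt
Kcnh4: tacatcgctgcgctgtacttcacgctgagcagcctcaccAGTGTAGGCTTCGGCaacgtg
Kcnh5: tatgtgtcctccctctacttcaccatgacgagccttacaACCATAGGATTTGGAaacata
Kcng1: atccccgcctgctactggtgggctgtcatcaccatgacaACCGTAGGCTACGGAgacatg
Kcng4: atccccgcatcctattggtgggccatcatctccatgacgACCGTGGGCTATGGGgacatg

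The stretches of Kcnd2 and Kcnd3 are identical at 53 of 60 bases, those of Kcng1 and Kcng4 at 50, of Kcnh1 and Kcnh4 at 47 and of Kcnh1 and Kcnh5 at 44. Of the 15 filter bases, 13 match between Kcnd2 and Kcnd3, 12 between Kcng1 and Kcng4 and 9 between Kcnh1 and Kcnh5. The Kcnd stretches cross an intron: Kcnd2 lies at chr6:21217366-21217412 and chr6:21714134-21714146, Kcnd3 at chr3:105367191-105367237 and chr3:105565927-105565939, both on the plus strand. The others lie within 1 coding exon, Kcnh1 at chr1:192020023-192020082 (plus strand), Kcnh4 at chr11:100641113-100641172 (minus), Kcnh5 at chr12:75134234-75134293 (minus), Kcng1 at chr2:168104555-168104614 (minus) and Kcng4 at chr8:120352643-120352702 (minus). Outside such conserved stretches the members are mostly distinct. Among members named with values, the share of 50-base stretches of the transcript that also occur in another gene was highest for Kcnmb4 (73.2%, with antisense genes counted), Kcnh7 (24.0%), Kcnj3 (21.1%), Kcnn2 (19.9%), Kcng2 (18.0%) and Kcng1 (17.5%), and counts of these genes are less certain.

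Counts assigned to genes ran from 7430401 to 13345552 in the 11 CRE libraries and from 9833872 to 17112815 in the 10 RFP libraries compared here. Libraries CRE 3-3, with 1546796 counts, and RFP 3-2, with 24.2% of its counts in the ribosomal gene Rn18s-rs5, were left out of the main comparison. Within the 21 libraries, CRE 1-3 and RFP 2-4 stood apart, with 0.261% and 3.43% of counts from mitochondrial genes against 7.0% to 11.1% in the 19 others, and with levels that followed the GC content of genes (correlations of 0.71 and 0.37 across genes). CRE 1-3 held the lowest CRE value of 25 members and the highest of 21, so results are also given without all 4 libraries, over the 19 that remain. Nedd8 was at 2.05 to 18.0 CPM (counts relative to library size, scaled by TMM) in the 12 CRE and at 44.1 to 76.0 in the 11 RFP libraries. Markers of other cells moved as well: 8 of 11 tested markers of the oligodendrocyte lineage and 8 of 8 of dividing cells were lower in CRE, and their summed TPM (counts per exon length, scaled to 1 total in each library) ran from 670 to 3665 in CRE and 962 to 3325 in RFP for the first and from 3.34 to 120 and 89.8 to 151 for the second. Astrocyte markers were mixed, with 3 higher and 4 lower of 12 and summed TPM of 892 to 3104 in CRE and 1831 to 4533 in RFP. Of 12 microglial markers, 7 had a median of 0 in both groups, and of the 3 tested 1 was higher, Tmem119 (3.21, SE 0.66, adjusted p = 5.17e-04; medians 0.111 CPM in RFP and 1.83 in CRE), with a summed TPM of 4.05 to 11.2 in CRE and 1.84 to 11.4 in RFP. Of 14 markers of endothelial cells, mural cells and fibroblasts, 9 were tested, 2 were higher and 1 lower, and their summed TPM was 43.9 to 245 (median 175) in CRE and 17.8 to 98.6 (median 48.8) in RFP. Rgs5, a marker of mural cells, was higher by 2.52 on the log2 scale (SE 0.39, adjusted p = 1.78e-05), while the endothelial marker Cldn5 had a median of 0 in both groups. General neuronal markers were lower for 6 of 10 and higher for 1 (summed TPM 2309 to 3828 in CRE, 3592 to 5169 in RFP), markers of glutamatergic neurons lower for 7 of 10 and higher for 1 (666 to 1486, and 1762 to 3927), and markers of GABA neurons lower for 4 and higher for 4 of 14 (1004 to 2169, and 1593 to 2380). The part of these shifts in the results on channels was not tested, and in RNA of whole cultures fewer cells of a type and less RNA per cell cannot be told apart.

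In RNA of CRE cultures, potassium channel genes were lower more often than higher. At an edgeR quasi-likelihood p under 0.05, adjusted after Benjamini-Hochberg over every gene tested, 27 of 69 members (39.1%) were lower and 7 (10.1%) higher in CRE than in RFP libraries, while 35 were not called. Without Kcnj15, 27 of 68 were lower and 6 higher. Among all 14488 genes tested over the 21 libraries, 13.8% were lower and 16.4% higher. With counts summed per culture number, 3 sums against 3, 26 members were lower and 4 higher. That fit tested 18417 genes, and its share over all genes is not given here. The median log2 fold change (CRE over RFP) of the members was -0.20, and -0.21 without Kcnj15, against 0.02 for all genes. Summed over the members, RFP libraries held 4483 to 4861 CPM (median 4689) and CRE libraries 3263 to 4601 (median 4159), and 9 of 11 CRE libraries lay below every RFP library. The sum in CPM was thus lower in most CRE libraries, although 26 of 69 members had a log2 fold change above 0, with 7 of them called higher. In TPM the sums overlapped over a wider range, at 2540 to 3286 (median 2732) in RFP and 2068 to 2869 (median 2551) in CRE libraries.

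Past an absolute log2 fold change of 1.3 and a -log10 adjusted p of 6 were Kcnq5 among lower and Kcnj15 among higher members, where 0.297% of all genes were lower and 1.09% higher. The study sets these limits on the fold change and on the p-value as such. At an unadjusted p the limits again left Kcnq5 and Kcnj15, against 0.538% of all genes lower and 1.95% higher. With counts summed per culture number, or without any 1 of the culture numbers, no member was past both limits on the adjusted p in edgeR. CPM of the groups did not overlap, with CRE lower, for Kcnd2, Kcnh1, Kcnj12 and Kcnq5 (4 of 69, 5.80%, against 2.08% of all genes), and with CRE higher for Kcnj15 (1 of 69, 1.45%, against 2.64%). For Kcnj15, passing the limits and the lack of overlap were built into its selection and are no separate result. Over the 19 libraries, 27 members were lower and 9 higher, in a fit of 14666 genes whose share called is not given here. Kcnf1, Kcnn3 and Kcne5 were then no longer called, while newly called members included Kcnh3 (-0.62, adjusted p = 9.19e-04), Kcnh7 (0.67, 0.00144), Kcnd3 (0.30, 0.0130) and Kcnk9 (0.50, 0.0328).

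**Figure D1:**
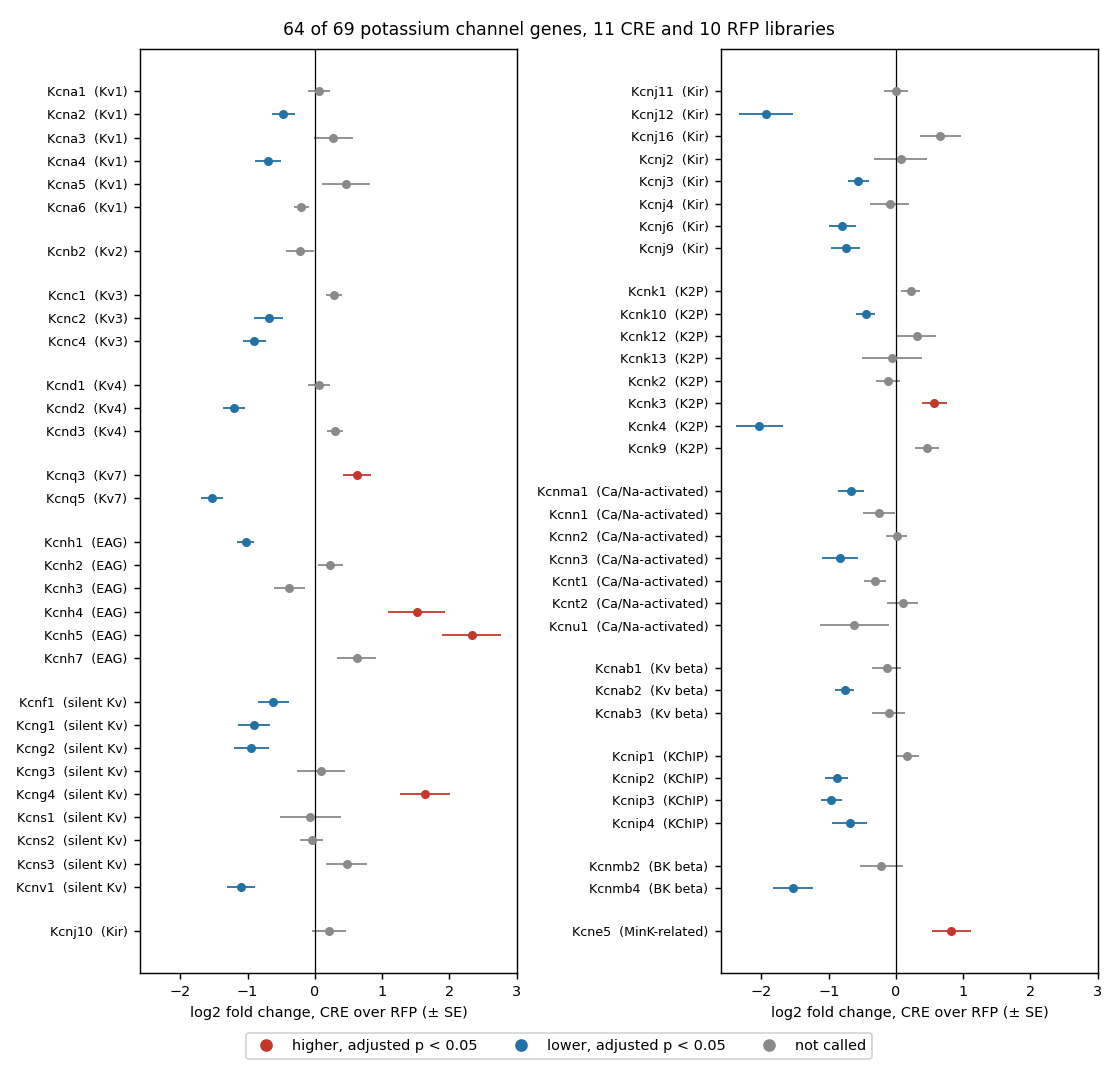
Log2 fold change (CRE over RFP, x axis) with its standard error for 64 of 69 members grouped by subfamily, from 11 CRE and 10 RFP libraries. Blue points are 24 of the 27 lower members and red points 6 of the 7 higher ones. Kcnj15, at 6.67, is among those not drawn.

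Kv7 channels carry the M-current, a slow current that holds neurons back from repetitive firing, and Kcnq5 and Kcnq3 went in opposite directions. Kcnq5 (Kv7.5; ENSMUSG00000028033, chromosome 1, 21468627 to 22032166) ranged from 116 to 182 CPM (median 139) in RFP and from 18.3 to 81.9 (median 49.5) in CRE libraries. The highest CRE library lay below the lowest RFP library. Its log2 fold change of -1.53 (standard error, SE, 0.17; adjusted p = 1.73e-07) corresponds to 34.7% of the RFP level, and over the 19 libraries the fold change was -1.45.

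Kcnq3 (Kv7.3; chromosome 15, 65858236 to 66158491), a subunit of the classical M-channel, rose from 96.8 to 172 CPM (median 136) in RFP to between 59.4 and 292 (median 247) in CRE libraries. The groups overlapped: 8 CRE libraries lay above and 2 below every RFP library, and the lowest was CRE 1-3. The log2 fold change was 0.63 (SE 0.21, adjusted p = 0.0259), and 0.69 (adjusted p = 0.00385) over the 19 libraries, but it did not pass without culture number 2 (0.58, adjusted p = 0.221) or 3 (0.58, 0.102). On the TPM scale, the ratio of Kcnq3 to Kcnq5 was 0.359 to 0.647 in RFP and 0.948 to 3.92 in CRE libraries, and all 11 CRE libraries exceeded every RFP library.

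Among Kv4 channels, which carry the A-type current that opens below the firing threshold, Kcnd2 fell and its relatives did not. Kcnd2 (Kv4.2; ENSMUSG00000060882, chromosome 6, 21214866 to 21729804) was at 103 to 136 CPM (median 122) in RFP and 20.4 to 81.6 (median 53.4) in CRE libraries, without overlap. Its log2 fold change was -1.20 (SE 0.16, adjusted p = 3.46e-06). Kcnd3 (Kv4.3) was at 134 to 253 CPM (median 196) in RFP and 156 to 291 (median 236) in CRE libraries, a difference of 0.30 (SE 0.12, adjusted p = 0.0684) that passed the test over the 19 libraries (adjusted p = 0.0130). Per length, Kcnd3 stood at 0.716 to 1.24 times the TPM of Kcnd2 in RFP and at 1.68 to 4.44 times in CRE libraries. Kcnd1 did not differ detectably (0.06, SE 0.17).

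KChIPs are calcium-binding proteins that bring Kv4 channels to the surface, and 3 of 4 were lower. Kcnip3 (KChIP3, also a transcriptional repressor known as DREAM) stood at 99.6 to 184 CPM (median 149) in RFP and 50.8 to 150 (median 75.0) in CRE libraries. It fell by 0.96 on the log2 scale (SE 0.16, adjusted p = 4.34e-05), and 10 of 11 CRE libraries lay below every RFP library. Kcnip2 fell from a median of 91.6 CPM (52.4 to 106) to 51.3 (21.9 to 66.5), a log2 fold change of -0.88 (SE 0.17, adjusted p = 3.28e-04). Kcnip4, at 9.95 to 28.8 CPM in RFP and 1.5 to 16.7 in CRE libraries, passed narrowly (-0.69, SE 0.26, adjusted p = 0.0471). It did not pass with culture number as a block (-0.66, adjusted p = 0.0594), with upper quartile factors (-0.68, 0.0514), without the library RFP 1-3 (-0.71, 0.0533), or without culture number 1 (-0.55, 0.129), 2 (-1.05, 0.0584) or 3 (-0.51, 0.283). Kcnip1 did not pass (0.17, SE 0.17, adjusted p = 0.513). Dpp6, the other main partner of Kv4.2, was lower as well, at a median of 186 CPM in RFP and 118 in CRE (-0.69, SE 0.10, adjusted p = 3.84e-06). Dpp10 was not called (-0.47, SE 0.27, adjusted p = 0.195).

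**Figure D2:**
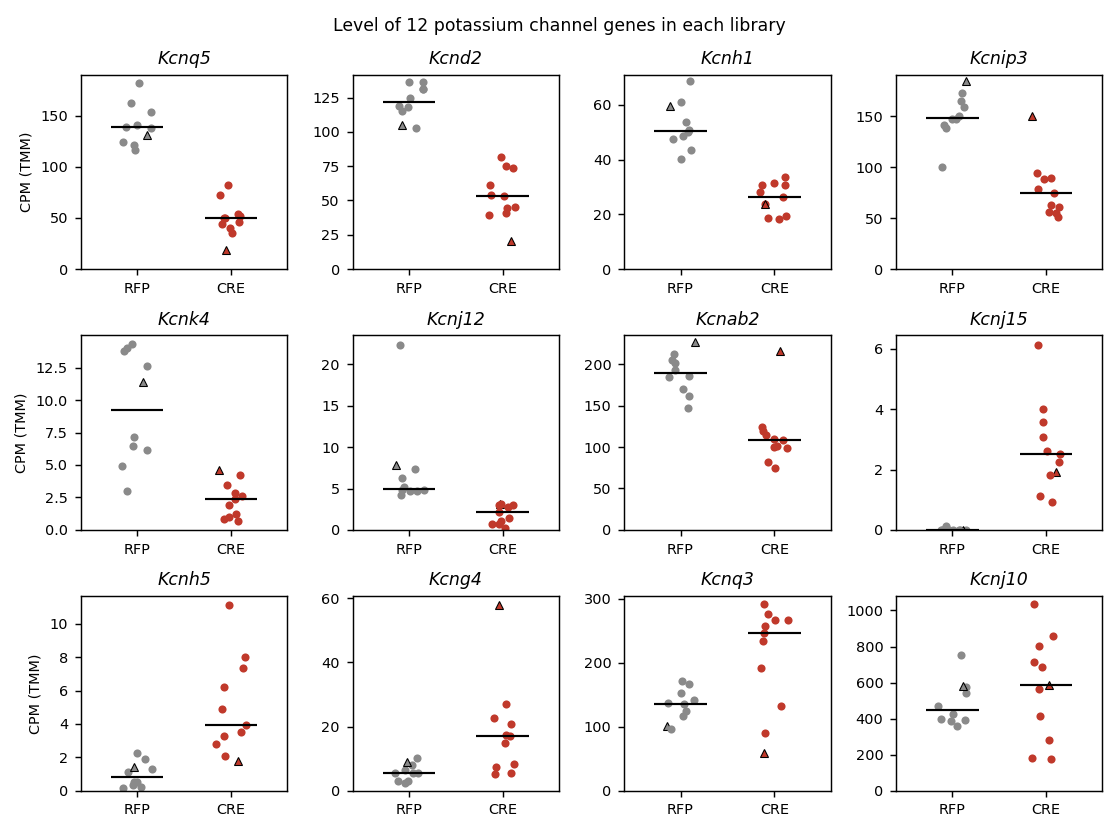
CPM of 12 members in each RFP (grey) and CRE (red) library, with the median as a line and the libraries RFP 2-4 and CRE 1-3 as outlined triangles. Groups are apart for Kcnq5, Kcnd2, Kcnh1, Kcnj12 and Kcnj15, and 1 RFP library of Kcnj12 stands at 22.4 CPM.

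The EAG family (Kv10 to Kv12) also divided. Kcnh1 (Kv10.1; ENSMUSG00000058248, chromosome 1, 191873081 to 192192467) was at 40.2 to 68.6 CPM (median 50.5) in RFP and 18.4 to 33.8 (median 26.5) in CRE libraries. Every CRE library lay below every RFP library, with a log2 fold change of -1.03 (SE 0.13, adjusted p = 1.27e-06). Its closest relative Kcnh5 (Kv10.2; chromosome 12, 74942354 to 75224151) rose from a low level, 0.158 to 2.27 CPM (median 0.820) in RFP, to 1.77 to 11.1 (median 3.96) in CRE libraries. That is a log2 fold change of 2.33 (SE 0.44, adjusted p = 2.37e-04), and 9 of 11 CRE libraries exceeded every RFP library. Kcnh4 (Kv12.3) rose as well, from a median of 1.26 CPM (0.308 to 3.00) to 3.65 (0.272 to 6.91), by 1.51 (SE 0.43, adjusted p = 0.00897), which did not pass without culture number 3 (1.34, adjusted p = 0.0925). Both rising genes rest on few counts, and in CRE libraries the TPM of Kcnh5 was still 0.0882 to 0.480 times that of Kcnh1, against 0.00393 to 0.0587 times in RFP libraries.

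Kv3 channels open and close fast and allow rapid firing, and Kcnc4 and Kcnc2 among their genes were lower. Kcnc4 (Kv3.4) fell from 53.3 to 88.5 CPM (median 67.3) in RFP to 25.7 to 80.9 (median 33) in CRE libraries, by -0.90 on the log2 scale (SE 0.17, adjusted p = 1.63e-04). The highest CRE value was again that of the library CRE 1-3, and 10 of 11 CRE libraries lay below every RFP library. Kcnc2 (Kv3.2) had a median of 98.2 CPM in RFP and 57.8 in CRE (-0.69, SE 0.21, adjusted p = 0.0137). Without culture number 2, neither passed (Kcnc4 -0.71, adjusted p = 0.0627; Kcnc2 -0.75, 0.127). Kcnc1 (Kv3.1) was at 144 to 220 CPM in RFP and 153 to 342 in CRE libraries, a difference of 0.28 that did not pass (SE 0.12, adjusted p = 0.0862).

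Kcnb2 of the Kv2 family did not pass (-0.22, SE 0.21, adjusted p = 0.464). Of 6 Kv1 genes, whose channels lie mainly in axons, Kcna4 (Kv1.4, an A-type channel of axons) was lower by -0.70 (SE 0.19, adjusted p = 0.00512; medians 56.5 and 32.0 CPM) and Kcna2 by -0.47 (SE 0.17, adjusted p = 0.0348; medians 197 and 152). Kcna2 did not pass without culture number 2 (-0.53, adjusted p = 0.170) or 3 (-0.53, 0.0880). Kcna1, the Kv1.1 gene, was at a median of 96.8 CPM in RFP and 112 in CRE libraries (0.06, SE 0.16, adjusted p = 0.816). Kcnab2, the main Kv1 beta subunit of neurons, fell from 147 to 227 CPM (median 190) to 74.4 to 216 (median 109), a log2 fold change of -0.76 (SE 0.14, adjusted p = 1.83e-04), while Kcnab1 stood at -0.14 (SE 0.21, adjusted p = 0.679). Exons of Kcnab2 overlap Chd5 over 402 and Nphp4 over 333 bases on the opposite strand, and the strand setting of the counting is not given in the sources used here.

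Silent subunits, which alter the gating of Kv2 channels, were lower for 4 of 9 and higher for 1. Kcnv1 (Kv8.1) went from 26.1 to 52.5 CPM (median 33.7) in RFP to 5.99 to 32.6 (median 18.1) in CRE libraries (log2 fold change -1.10, SE 0.21, adjusted p = 3.00e-04). Kcng1 changed by -0.91 (SE 0.24, adjusted p = 0.00501), Kcng2 by -0.95 and Kcnf1 by -0.62. With all 23 libraries, Kcng1 stood at -0.62 (adjusted p = 0.118) and Kcng2 at -0.28 (0.656), and neither was called. Kcng1 also did not pass without culture number 2 (-0.78, adjusted p = 0.161), nor Kcng2 without number 3 (-0.82, 0.08). Kcnf1 lost its call with culture number as a block (-0.56, adjusted p = 0.0605), with summed counts (-0.64, 0.106), over the 19 libraries (-0.49, 0.0871), without RFP 1-3 (-0.61, 0.0597), and without culture number 1 (-0.61, 0.188) or 2 (-0.31, 0.489). Kcng4 (Kv6.4; chromosome 8, 120349688 to 120362762) rose, from 2.37 to 10.2 CPM (median 5.63) to 5.11 to 57.8 (median 17.0). Its log2 fold change was 1.64 (SE 0.37, adjusted p = 0.00126), 7 of 11 CRE libraries exceeded every RFP library, and over the 19 libraries, without the CRE library at 57.8 CPM, it was 1.38 (adjusted p = 0.00117). With counts summed per culture number Kcng4 did not pass (1.51, SE 0.55, adjusted p = 0.0950). The ratio of Kcng4 to Kcng1 in TPM was 0.0495 to 0.194 in RFP and 0.175 to 0.931 in CRE libraries, and 10 of 11 CRE libraries exceeded every RFP library.

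**Figure D3:**
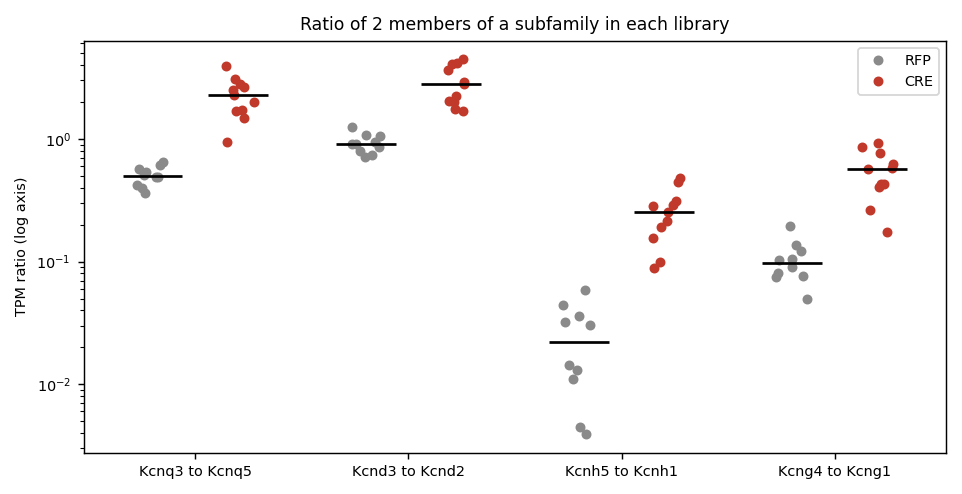
Ratio of the TPM of 2 members of a subfamily in each RFP (grey) and CRE (red) library on a log axis, with medians as lines. The ratios of Kcnq3 to Kcnq5, Kcnd3 to Kcnd2 and Kcnh5 to Kcnh1 do not overlap between the groups, and that of Kcng4 to Kcng1 does for 1 CRE library. The pairs were chosen after their values were seen.

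Inward rectifiers gave both the largest increase and one of the largest decreases. Kcnj15 (Kir4.2; ENSMUSG00000062609, chromosome 16, 95058417 to 95101119) had 0 counts in 9 of 10 RFP libraries and 2 in the other, and 11 to 84 counts in CRE libraries (0.939 to 6.14 CPM, median 2.50). Its summed counts of 356 and 2 give a ratio of rates of 169 (95% exact interval 46.6 to 1405, for counting error only), and the fitted log2 fold change of 6.67 depends on how counts of 0 are treated. Exons of Kcnj15 share 512 bases with a noncoding gene on the opposite strand, and 10.6% of its 50-base stretches also occur in another gene. Kcnj12 (Kir2.2; chromosome 11, 60912944 to 60964099) was at 4.20 to 22.4 CPM (median 5.00) in RFP and 0.228 to 3.15 (median 2.12) in CRE libraries, without overlap. Its log2 fold change was -1.93 (SE 0.40, adjusted p = 5.12e-04), and -1.54 (adjusted p = 0.00207) without the RFP library at 22.4 CPM. Both genes are expressed at low levels, near the bottom of the order of TPM.

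GIRK channels, which open when G-protein-coupled receptors such as the GABA-B receptor are active, were lower for each of the 3 members present. Kcnj3 (GIRK1) was at 118 to 260 CPM (median 168) in RFP and 39.8 to 163 (median 121) in CRE libraries (-0.56, SE 0.16, adjusted p = 0.00969). Kcnj6 (GIRK2) fell from a median of 16.5 CPM to 7.90 (-0.80, SE 0.20, adjusted p = 0.00411) and Kcnj9 (GIRK3) by -0.75. Groups overlapped for all 3, with 4, 6 and 6 of 11 CRE libraries below every RFP library. Kcnj3 (-0.45, adjusted p = 0.117) and Kcnj6 (-0.46, 0.132) did not pass without culture number 3, nor Kcnj9 (-0.60, 0.188) without number 2. Exons of Kcnj3 and Kcnj6 share 1282 and 1437 bases with noncoding genes on the opposite strand.

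Kcnj10 (Kir4.1; ENSMUSG00000044708, chromosome 1, 172168765 to 172201652), the principal glial potassium channel, was the most abundant member per length in both groups. RFP libraries held 379 ± 104 TPM (SD, n = 10) and CRE libraries 450 ± 211 TPM (SD, n = 11). In CPM it ranged from 362 to 751 in RFP and from 178 to 1036 in CRE libraries, wider on both sides, and the difference did not pass (0.21, SE 0.25, adjusted p = 0.580). Within culture numbers 1, 2 and 3 its log2 fold change was 0.72, 0.16 and -0.97.

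Two-pore channels, which carry the leak current at rest, had 2 lower members and 1 higher of 8. Kcnk4 (TRAAK, a mechanosensitive channel; chromosome 19, 6901334 to 6911883) went from 2.99 to 14.3 CPM (median 9.24) in RFP to 0.684 to 4.63 (median 2.39) in CRE libraries. The log2 fold change of -2.03 (SE 0.35, adjusted p = 6.85e-05) was the lowest of all 69 members, and 8 of 11 CRE libraries lay below every RFP library. Kcnk4 shares 587 exon bases with Catsperz on the same strand, so part of its counts cannot be assigned to 1 gene. Kcnk10 (TREK-2) changed by -0.45 (SE 0.14, adjusted p = 0.0149), while its relative Kcnk2 (TREK-1) stood at -0.12 (SE 0.18, adjusted p = 0.668). Kcnk10 did not pass without culture number 1 (-0.35, adjusted p = 0.114) or 2 (-0.54, 0.0859). Kcnk3 (TASK-1) was higher by 0.57 (SE 0.19, adjusted p = 0.0281), but did not pass with counts summed per culture number (0.51, 0.0630) or without number 1 (0.35, 0.267) or 2 (0.68, 0.112). Kcnk1 (TWIK-1), at place 3 in the order of TPM in RFP libraries, was at medians of 82.6 and 105 CPM and did not pass (0.22, SE 0.14, adjusted p = 0.263).

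Calcium-activated channels link calcium entry to repolarization. Kcnma1, the pore of the BK channel, was at 164 to 312 CPM (median 248) in RFP and 30.7 to 199 (median 163) in CRE libraries (-0.67, SE 0.19, adjusted p = 0.00751), and did not pass without culture number 2 (-0.83, 0.0593) or 3 (-0.69, 0.0547). Its neuronal beta subunit Kcnmb4 went from 2.61 to 7.10 CPM (median 4.84) to 0.272 to 2.95 (median 1.62), a log2 fold change of -1.53 (SE 0.30, adjusted p = 3.53e-04), with 10 of 11 CRE libraries below every RFP library. Exons of Kcnmb4 share 758 and 367 bases with 2 antisense genes. Lrrc55, a gamma subunit of BK channels, was lower too (medians 53.7 and 20.1 CPM; -1.60, SE 0.19, adjusted p = 6.73e-07), whereas Kcnmb2 stood at -0.22 (SE 0.32). Of the small-conductance channels, Kcnn3 (SK3) was lower by -0.83 (SE 0.27, adjusted p = 0.0225), but not over the 19 libraries (-0.77, adjusted p = 0.0517), without CRE 1-3 and CRE 3-3 alone (-0.67, 0.0735), or without culture number 1 (-0.77, 0.137) or 2 (-0.62, 0.312), and Kcnn2 (SK2) stood at 0.01 (SE 0.16, adjusted p = 0.972). Kcne5, the single member of its family, was higher by 0.82 (SE 0.29, adjusted p = 0.0354), which likewise did not pass over the 19 libraries (0.64, adjusted p = 0.0655), with all 23 (0.79, 0.0775), without CRE 1-3 and CRE 3-3 alone (0.55, 0.163), with summed counts (0.75, 0.107), or without culture number 1 (0.50, 0.285) or 2 (0.82, 0.14).

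The make-up of the potassium channel transcripts was compared as each subfamily's percentage of the summed TPM of the 69 members, as a description without a test. The share of KChIPs was 10.3% ± 1.10 over 10 RFP libraries and 6.91% ± 1.69 over 11 CRE libraries, with errors given as SD. K2P channels made up 9.84% ± 0.870 and 12.6% ± 1.24, and inward rectifiers 25.0% ± 2.41 and 28.9% ± 6.23, of which Kcnj10 alone was 13.7% and 17.8%. All auxiliary members together were 15.1% ± 0.954 in RFP and 11.4% ± 1.97 in CRE libraries. Shares of Kv1 (10.0% ± 1.08 and 10.3% ± 1.51), Kv4 (6.73% ± 0.716 and 6.65% ± 1.51) and EAG genes (3.27% ± 0.319 and 3.53% ± 0.563) lay within 1 SD of each other, although Kcnd2 and Kcnh1 within them fell. In the order of mean TPM, Kcnd3 went from place 12 in RFP to 3 in CRE libraries, Kcnq3 from 24 to 12, Kcnd2 from 8 to 18 and Kcnq5 from 13 to 25. In RFP libraries the neighbours below Kcnj10, which were Kcnip3 (157 ± 33.2 TPM, SD, n = 10), Kcnk1 (142 ± 17.1) and Kcnj3 (128 ± 19.8), each differed from the next by less than the spread.

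**Figure D4:**
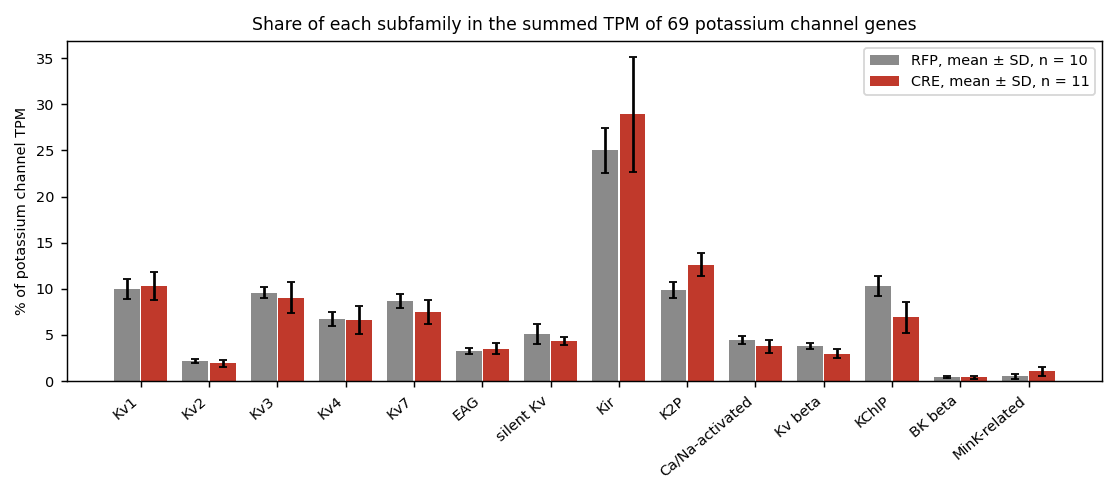
Share of each of 14 subfamilies in the summed TPM of the 69 members, as mean and SD over 10 RFP (grey) and 11 CRE (red) libraries. KChIPs stand at 10.3% and 6.91%, K2P channels at 9.84% and 12.6%.

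The direction of the called members was the same in the 3 culture numbers for 26 of 27 lower and 7 of 7 higher members. The exception was Kcnf1, at -0.64, -0.97 and 0.09. The members were called on these same libraries, which favours agreement in sign, and no share over all called genes is given here. Without culture number 2, 15 members were lower and 4 higher, in a fit of 14745 genes whose share called is not given here. A test of the interaction of group and culture number, in edgeR with Benjamini-Hochberg adjustment, called 1 of 14488 genes (0.00690%) and 0 of 69 members, whose smallest adjusted p was 0.652. At an unadjusted p under 0.05 there were 6 members (8.70%), against 4.11% of all genes. These were Kcnk1, Kcnj10, Kcnk9, Kcna1, Kcnj6 and Kcnk4, and the first 4 had a positive log2 fold change in culture numbers 1 and 2 and a negative one in culture number 3.

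**Figure D5:**
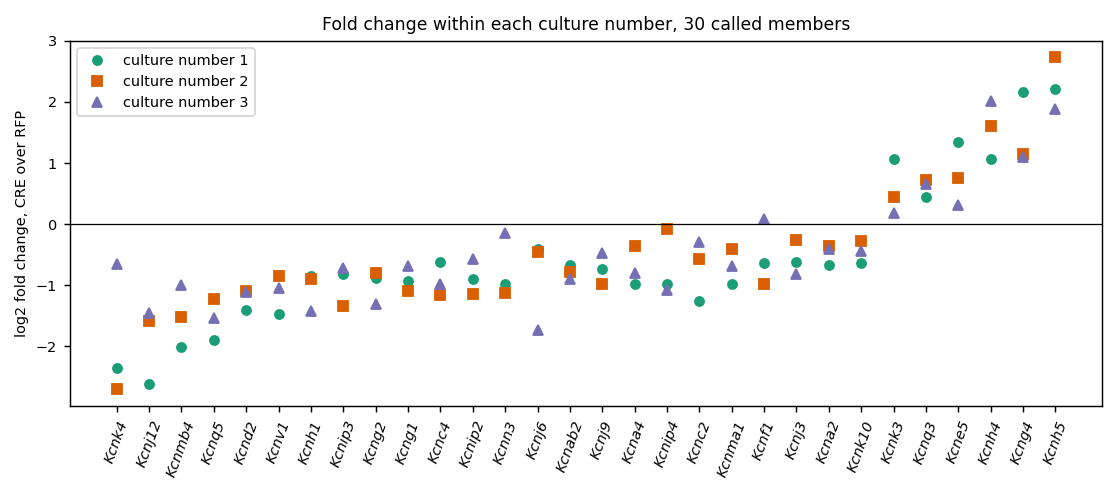
Log2 fold change (CRE over RFP) of 30 of the 34 called members within culture numbers 1, 2 and 3, ordered by the fold change over 21 libraries. Kcnj15 is among those not drawn. Points of a gene lie on 1 side of 0 except those of Kcnf1.

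Genes outside the rule that bind potassium channels were lower or not called, in a list chosen with earlier results known. For comparison, 13.8% of all genes tested were lower and 16.4% higher, and the 10 general neuronal markers had a median log2 fold change of -0.70. Of 20 partner genes in a list of auxiliary, clustering and trafficking proteins and calmodulins, 17 were tested, 7 were lower and 0 higher, with a median log2 fold change of -0.42. Among the lower were Cntn2 (-1.69, SE 0.20, adjusted p = 4.02e-07), an axonal protein that clusters Kv1 channels, Lgi1 (-0.85, SE 0.16, adjusted p = 1.69e-04), Ank3 (-0.37, SE 0.10, adjusted p = 0.00610), the ankyrin that anchors Kv7 channels, Dpp6 and Lrrc55. None of the 4 HCN genes, related channels that open on hyperpolarization, was called in edgeR (0.12 to 0.32, adjusted p from 0.322 to 0.664).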

How the data were processed

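Per the labels and Methods, libraries of mRNA were sequenced and aligned to GRCm39, with genes as in Ensembl release 110. The submitters' processing notes name bcl2fastq 2.20.0.422, STAR 2.7.8a and featureCounts 1.5.0-p1. The authors deposited the count of reads assigned to each gene, 1 library a file, as whole numbers without normalization. The strand setting and the treatment of multi-mapping reads are not given in the sources used here, so genes with shared or antisense sequence are uncertain.

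Symbols, exon lengths and coding sequences came from GENCODE M39, a later release of GRCm39. Groups were taken from the sample titles, and library names such as CRE 1-3 give the culture number and the library number. The main comparison used 21 libraries, because the study's supplementary count table leaves out CRE 3-3 and RFP 3-2, while Methods names CRE 1-3 and CRE 3-3. Counts were tested with R 4.3.3 and edgeR 4.0.16 (filterByExpr, TMM factors, estimateDisp, robust glmQLFit and glmQLFTest) with Benjamini-Hochberg adjustment over 14488 genes. The interaction with culture number was tested in the same way. DESeq2 1.42.0 was an alternative. CPM were scaled by TMM factors over all 23 libraries, and TPM used the summed exon length of a gene. Tables and figures were made with Python 3.11.15, pandas 2.3.3, scipy 1.17.1, Biopython 1.88 and matplotlib 3.10.9. The edgeR scripts were tested on simulated data.

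The members, the marker and partner lists and the rule for named genes were chosen with earlier results of these data known. The rule names members past both thresholds, the 2 members with the smallest p of each subfamily, and 20 members well known in hippocampal neurons or glia. Some called members outside the rule (Kcnf1, Kcng1, Kcng2, Kcnh4, Kcnj9, Kcnk3), members whose call or place changed (Kcnh3, Kcnh7, Kcnk9) and Kcnd1 and Kcnip1 were named after their values were seen. Some members and a partner gene are not reported here by name. In all, 15 alternatives were set and 1 was added after seeing the data. Intervals cover counting error only.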

Additional observations from a re-analysis of the deposited data

Results flagged for a closer look

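In the 10 RFP libraries of the main comparison, the gap between the most extreme library and its neighbour, divided by the range, was compared with Dixon's 95% critical value for each of 37 named members. It was exceeded by Kcnj12, Kcna1 and Kcnip4, where chance gives about 1 in 20 groups, and by Kcnj15, where it says nothing. RFP 1-3 stood at 22.4 CPM of Kcnj12 (316 counts), with the next library at 7.90. RFP 3-1 stood at 163 CPM of Kcna1 (1579 counts), with the next at 107. RFP 3-4 stood at 28.8 CPM of Kcnip4 (285 counts), with the next at 18.8. RFP 2-3 stood at 0.119 CPM of Kcnj15, which is 2 counts, with 0 counts in the 9 others, so that any single count would have passed. Why these libraries differ was not tested.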

How the results depend on the processing

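Over 15 alternatives set at the start (libraries, tool, scaling, filter, blocks, sums per culture number, culture numbers left out, GC trend) and 1 added after seeing the data (without RFP 1-3), all 34 called members kept their sign. The alternatives reuse libraries of the main comparison, which favours agreement in sign, and shares over all genes are not given for them. A call in the same direction held under every one of these for 12 of 27 lower members and 2 of 7 higher ones, Kcnh5 and Kcnj15. Neither Kcnh5 nor Kcnj15 would meet the count rule on RFP libraries alone. Summing counts per culture number left 4 higher members, and 0 past both thresholds. Leaving out a culture number gave 4 to 7 higher, 15 to 24 lower and 0 past both thresholds, with the lowest counts of higher and lower members without culture number 2, and 19 of the 34 members lost their call without at least 1 of the numbers. DESeq2 placed 5 past both thresholds, adding Kcnh5, Kcnk4 and Kcnmb4. Kcnip4 lost its call without RFP 1-3 (-0.71, adjusted p = 0.0533, from edgeR).

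Whether CRE and RFP libraries of equal number share a culture is not stated in the sources. The check made here rests on 3 culture means per group, so it cannot decide this. Fold changes within a culture number and the interaction test set libraries of equal number side by side. The correlations of deviations between CRE and RFP were 0.0373, 0.0408 and 0.133 for culture numbers 1, 2 and 3, and of the 3 CRE cultures only number 3 correlated best with its own number in RFP (number 1 with RFP culture 2 at 0.150, number 2 with RFP culture 3 at 0.0474). With culture number as a replicate block, 7 members were higher, 25 lower and 2 past both thresholds (Kcnf1 and Kcnip4 lost their calls), with library number as block 7, 27 and 2, and with the GC trend removed and the culture block 9, 29 and 2.

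Members that were not called changed sign under some alternatives. Kcna1 stood at -0.02 with all 23 libraries, -0.05 with the libraries of Methods, -0.02 with summed counts and between -0.16 and 0.34 with a culture number left out. Kcnn2 stood at -0.12 over 19 libraries, -0.02 with the culture block, -0.09 with sums and between -0.11 and 0.11 with a culture number left out. Kcnj10 was at -0.01 with the GC trend removed and the block, and between -0.15 and 0.40 with a culture number left out, Kcnk2 between -0.40 and 0.11 and Kcnmb2 between -0.42 and 0.15. Depth limits genes of few counts, such as Kcnj12, Kcnh5, Kcnh4 and Kcnmb4.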
